A study of Mus musculus with 24 samples.

Results

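Transcripts of 9 p53 pathway and apoptosis genes (Trp53, Mdm2, Cdkn1a, Ccng1, Phlda3, Bax, Bbc3, Bcl2l11 and Eda2r) were followed in the neural retina and eye cup of PRDM13-OE and wildtype mice. The genes were chosen by name, and each name matched 1 row of the deposited table of 56748 genes. The question was whether a cell death programme was visible at the transcript level after 72 hours of PRDM13 induction. PRDM13-OE mice were heterozygous for a Rosa26 knock-in on the C57BL/6J background, in which the EF-1α promoter, active in most cell types, drives the reverse tetracycline transactivator and the TRE3G promoter drives tagged human PRDM13. Their controls were wildtype littermates without the knock-in. Both genotypes were either left untreated or drank 2 mg/mL doxycycline (dox) with 10% sucrose for 72 hours from P28, so that dox and sucrose came together. Neural retina and eye cup (RPE, choroid and sclera) were taken from the same mice, with 3 mice in each of the 4 combinations of genotype and dox, which gave 24 polyA RNA-seq libraries in 8 groups from 12 mice.

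p53, the protein encoded by Trp53, is a transcription factor that the ubiquitin ligase MDM2 keeps low and that is stabilized mainly at the protein level after DNA damage and other stress, so its own transcript can stay level while its targets rise. Its targets stop the cell cycle (Cdkn1a), restrain survival signalling (Phlda3), feed back on p53 itself (Mdm2, Ccng1) or promote death (Bax, Bbc3, Eda2r). In the mitochondrial pathway, the BH3-only proteins PUMA (Bbc3) and BIM (Bcl2l11) free or activate BAX, which opens the outer mitochondrial membrane, and BAX is needed for much of the natural death of neurons in the developing retina.

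Of the 9 genes, 5 carry the p53 half-site, the short motif of which paired copies make a p53 response element, in a RefSeq promoter window (GRCm38.p6, a build other than the GRCm39 of the deposited table). These stretches are shown because p53 reaches its targets through such letters. Capitals mark half-sites and, in Cdkn1a and Ccng1, also the adjoining copy with 1 mismatch, and each line reads 5′ to 3′ along the strand of the gene.
Cdkn1a (chr17:29090894-29090959, plus strand): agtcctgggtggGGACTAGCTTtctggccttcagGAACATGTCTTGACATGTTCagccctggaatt
Ccng1 (chr11:40755450-40755493, minus strand): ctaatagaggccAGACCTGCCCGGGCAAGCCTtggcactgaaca
Mdm2 (chr10:117710923-117710956, minus strand): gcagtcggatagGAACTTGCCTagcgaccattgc
Bax (chr7:45467078-45467111, minus strand): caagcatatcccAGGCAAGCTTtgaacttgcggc
Trp53 (chr11:69580272-69580305, plus strand): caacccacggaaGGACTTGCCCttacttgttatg

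A half-site on either strand was present in 2745 of 32851 windows of this length over all genes (8.36%), and in 5 of the 13 windows of these 9 genes. A pair of half-sites up to 13 bases apart was found in 0.0731% of all windows and, among the 9 genes, in Cdkn1a alone. Adjoining copies with at most 1 mismatch were found in 0.0883% of all windows, and among the 9 genes in Cdkn1a and Ccng1. A match describes the letters only, and sites in introns or further upstream lie outside these windows.

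Each library held between 15825059 and 24908314 counts over all genes. The retinas expressed the rod markers strongly, with a summed level of 12 rod genes between 53300 and 78070 CPM (counts relative to library size, scaled with TMM factors over all 24 libraries), and the eye cups expressed the 8 RPE and pigment genes at 6428 to 38610 CPM against 39.2 to 289 CPM in the retinas. Eye cups also held rod transcripts (3616 to 53710 CPM) and keratins of the surface epithelium (Krt5, Krt12, Krt14 and Krt15, 1064 to 27620 CPM). The table has no row for the human transgene, and mouse Prdm13 was read at 983 to 1097 counts in dox-treated PRDM13-OE retinas and 791 to 917 in dox-treated wildtype retinas, so induction itself was not checked here. Libraries that stood apart were the wildtype dox retinas of mice 1 and 2, with 10120 and 4193 CPM of 8 lens crystallins against 3.04 to 728.9 CPM in the other 10 retinas, and the PRDM13-OE dox eye cup of mouse 3, which is described with its results. The p-values measure the spread between these mice, and a bulk level cannot tell fewer cells of a type from less RNA per cell.

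In dox-treated retinas, none of the 9 genes differed between PRDM13-OE and wildtype mice past the test. The test was edgeR's quasi-likelihood test with Benjamini-Hochberg adjustment over all 20560 genes tested, and a gene passed at an adjusted p under 0.05. Of all genes, 12.5% passed and 2.41% were also past a log2 fold change of 1, against 0 of 9 here (4 of 9 at an unadjusted p under 0.05, and 0 of 9 by DESeq2). Apart from Eda2r, which was barely read in the retina, the fitted differences were at most 0.44 on the log2 scale in either direction, with a median over the 9 genes of 0.15 against 0.0056 over all genes. The groups did not overlap for 3 of the 9 genes, Trp53 and Bax higher and Phlda3 lower in PRDM13-OE, where 31.8% of all genes tested did not overlap.

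**Figure D1:**
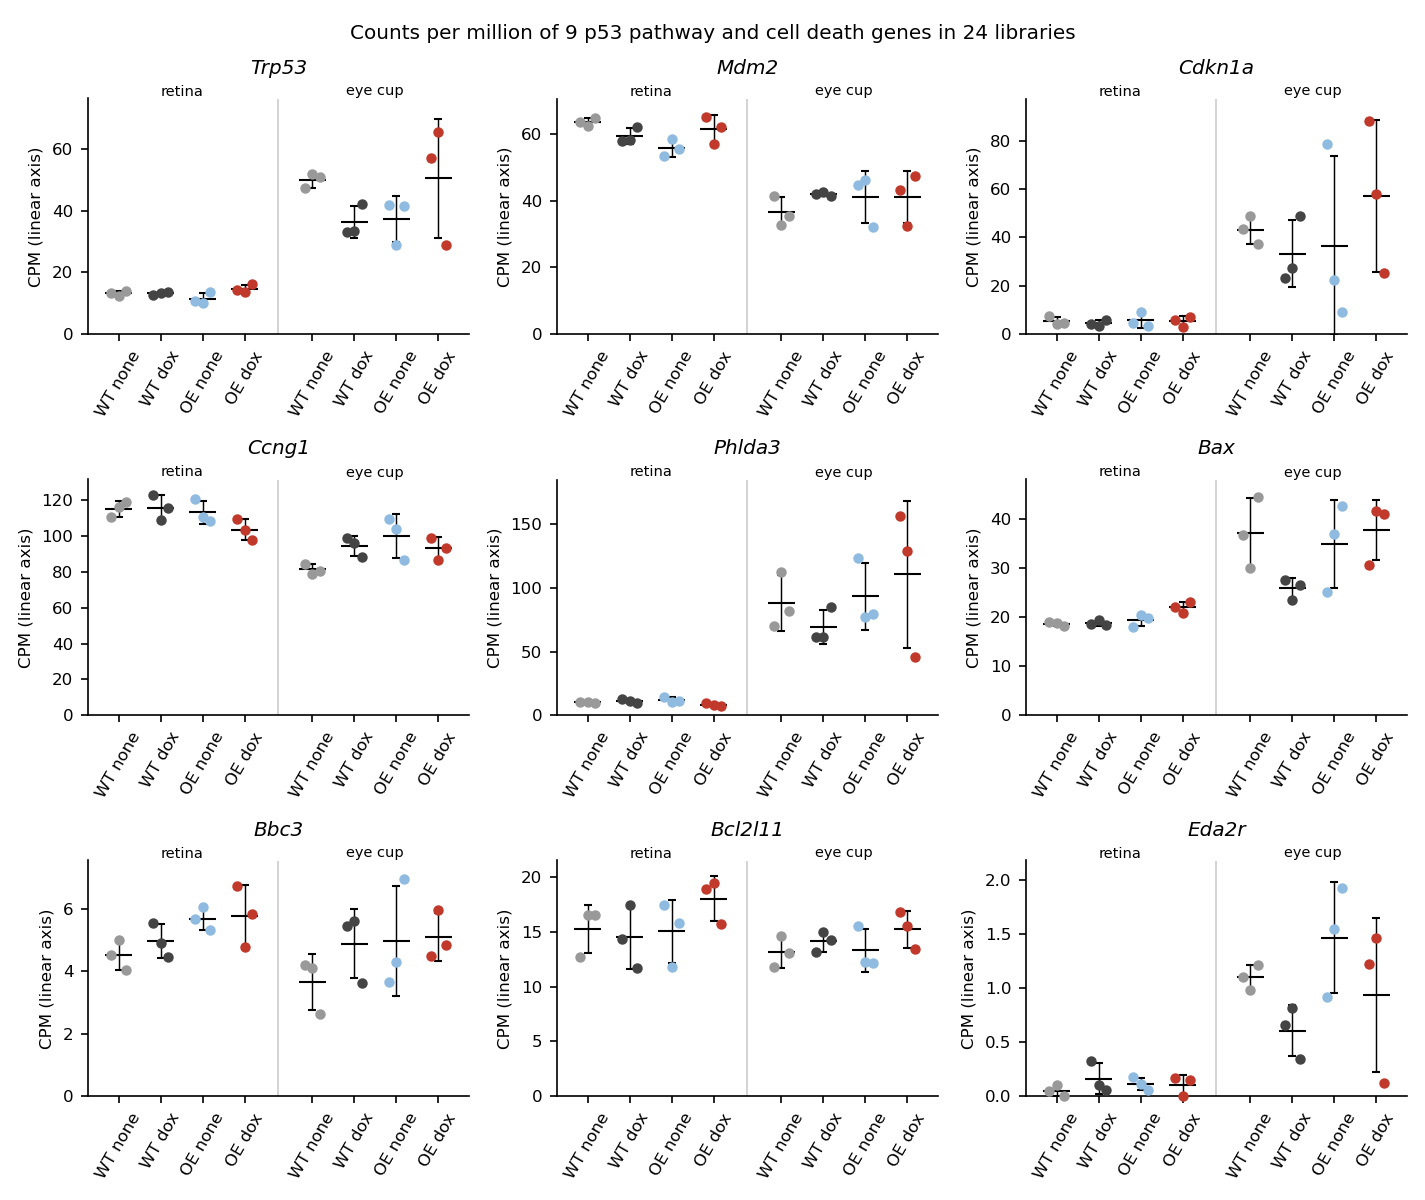
Levels of the 9 genes in the 24 libraries, in CPM on a linear axis that starts at 0, with 1 point per mouse, the group mean as a horizontal line and the SD as the vertical bar. On the retina side of each panel the 4 groups sit close together, with dox-treated PRDM13-OE mice lowest for Phlda3 (7.51 to 9.25 CPM) and highest for Bax (20.89 to 22.97 CPM), and on the eye cup side Trp53, Cdkn1a and Phlda3 spread widely within the PRDM13-OE groups.

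Trp53 (chr11:69471185-69482699, plus strand, GRCm39) was read at 14.4, 13.7 and 16.2 CPM in the PRDM13-OE dox retinas and at 12.8, 13.2 and 13.6 CPM in the wildtype dox retinas. All 3 PRDM13-OE values lay above all 3 wildtype values, though the nearest pair were close. The fitted difference was 0.15 on the log2 scale (SE 0.0966, adjusted p = 0.351), and 0.0783 without PRDM13-OE dox retina 3. Untreated PRDM13-OE retinas were the lowest of the 4 groups, at 10.7, 10.2 and 13.6 CPM, and against them the difference was 0.36 (SE 0.131, adjusted p = 0.184).

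Mdm2 (chr10:117524780-117546663, minus strand), which encodes the ligase that degrades p53 and is itself a p53 target, is among the transcripts that follow p53 activity most directly. It was read at 65.3, 57.1 and 62.3 CPM in the PRDM13-OE dox retinas and at 57.8, 58.2 and 62.2 CPM in the wildtype dox retinas. The groups overlapped, and the fitted difference of 0.04 had a 95% interval (normal approximation) from -0.08 to 0.17 (adjusted p = 0.721), the narrowest interval but 1 among the 9 genes.

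Cdkn1a (chr17:29309950-29319701, plus strand) encodes p21, which binds cyclin-dependent kinases and holds cells in G1. Its 12 retinas ranged from 3.11 to 9.13 CPM, the widest relative spread among the 8 genes detected in every retina, and the highest value came from an untreated PRDM13-OE mouse. The PRDM13-OE dox retinas had 5.96, 3.11 and 7.10 CPM and the wildtype dox retinas 4.02, 3.39 and 5.96 CPM. The difference of 0.27 had an interval from -0.295 to 0.835 (adjusted p = 0.606), which held changes in both directions. It ran from 0.0154 without PRDM13-OE dox retina 3 to 0.54 without PRDM13-OE dox retina 2.

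Ccng1 (chr11:40639379-40646138, minus strand), whose product cyclin G1 recruits a phosphatase to MDM2, had 109.7, 103.3 and 98.0 CPM with dox in PRDM13-OE and 123.2, 108.9 and 115.6 CPM in wildtype retinas. The groups overlapped, since 1 PRDM13-OE mouse lay above the lowest wildtype mouse, and the fitted difference was -0.17 (SE 0.0638, adjusted p = 0.114). Beside Phlda3 it was the other member whose dox-treated PRDM13-OE retinas had the lowest mean of the 4 groups, at 103.7 CPM against 113.3 to 115.9 CPM.

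Phlda3 (chr1:135693857-135696874, plus strand) encodes a small pleckstrin homology domain protein that p53 induces and that competes with AKT for membrane lipids. It was read at 9.25, 7.72 and 7.51 CPM in the PRDM13-OE dox retinas, at 12.4, 11.1 and 9.53 CPM in the wildtype dox retinas, at 14.2, 10.4 and 11.5 CPM in untreated PRDM13-OE retinas and at 10.7, 10.3 and 9.90 CPM in untreated wildtype retinas. Each PRDM13-OE dox retina lay below all 9 others. Against untreated PRDM13-OE retinas Phlda3 fell by 0.56 on the log2 scale (SE 0.148, adjusted p = 0.047), the single member that passed a comparison within the retina, where 5% of 20603 genes passed and 1.04% were also past a log2 fold change of 1. Against wildtype dox retinas the difference was -0.44 (SE 0.133, adjusted p = 0.0527).

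The call for Phlda3 sat at the edge of the threshold. Its sign was negative under all 15 alternatives of the comparison with untreated PRDM13-OE retinas, and it passed under 9 of them. It missed the threshold with library size alone as scaling (-0.50, adjusted p = 0.0753) and without PRDM13-OE dox retina 1 (adjusted p = 0.063), 2 (0.1945) or 3 (0.1955) or untreated PRDM13-OE retina 1 (0.1297) or 3 (0.0734). Against wildtype dox retinas it passed under 5 of 16 alternatives, among them the fit without PRDM13-OE dox retina 1 (-0.54, adjusted p = 0.0465), the fit without wildtype dox retina 3 (-0.52, adjusted p = 0.0262) and the fit with a replicate block on the mouse number (adjusted p = 0.0318). With the crystallin level as a covariate the difference from wildtype dox retinas was -0.05 (adjusted p = 0.944), though the crystallin levels of the dox-treated genotypes did not overlap. Without the 2 crystallin-rich retinas it was -0.24 (adjusted p = 0.599), with 1 wildtype dox retina left. With the same covariate the difference from untreated PRDM13-OE retinas was -0.48 (adjusted p = 0.0351) and the interaction was -0.45 (adjusted p = 0.33).

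Bax (chr7:45111121-45116322, minus strand) was read at 21.96, 20.89 and 22.97 CPM in the PRDM13-OE dox retinas and at 18.6, 19.4 and 18.3 CPM in the wildtype dox retinas. The PRDM13-OE dox values were above those of all 9 other retinas, whose highest was 20.4 CPM. The fitted difference was 0.22 (SE 0.0739, adjusted p = 0.079) against wildtype dox and 0.18 (adjusted p = 0.386) against untreated PRDM13-OE. With library size alone the first of these passed (0.31, adjusted p = 0.0159), and it passed under none of the other 15 alternatives.

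Bcl2l11 (chr2:127967958-128004467, plus strand), the gene of BIM, had 18.95, 19.44 and 15.72 CPM in PRDM13-OE dox retinas against 14.4, 17.4 and 11.7 CPM in wildtype dox retinas. The highest wildtype mouse lay above the lowest PRDM13-OE mouse. The difference was 0.31 (SE 0.133, adjusted p = 0.165), and it passed under 2 of 16 alternatives, without wildtype dox retina 2 (0.46, adjusted p = 0.0449) and without the filter on low counts (adjusted p = 0.033). Over the 16 it ran from 0.18, without wildtype dox retina 3, to 0.78 with the crystallin covariate, with adjusted p-values up to 0.419.

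Bbc3 (chr7:16042318-16052130, plus strand), the gene of PUMA, was low in every retina, between 4.05 and 6.74 CPM. Its PRDM13-OE dox retinas had 6.74, 4.77 and 5.83 CPM and its wildtype dox retinas 5.54, 4.91 and 4.46 CPM, which overlap. The difference was 0.21 (SE 0.169, adjusted p = 0.476, and 0.0797 without PRDM13-OE dox retina 1) against wildtype dox and 0.02 (adjusted p = 0.98) against untreated PRDM13-OE, whose 3 values of 5.67, 6.05 and 5.33 CPM lay within the range of those with dox.

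Eda2r (chrX:96377446-96420822, minus strand), a receptor of the TNF family that binds ectodysplasin A2, was near the limit of detection in the retina. It had 3, 0 and 3 counts in the PRDM13-OE dox retinas and 6, 2 and 1 counts in the wildtype dox retinas, and between 0 and 6 counts in all 12. The fitted difference of -0.58 had an SE of 0.98, and no change was detectable at this depth.

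**Figure D2:**
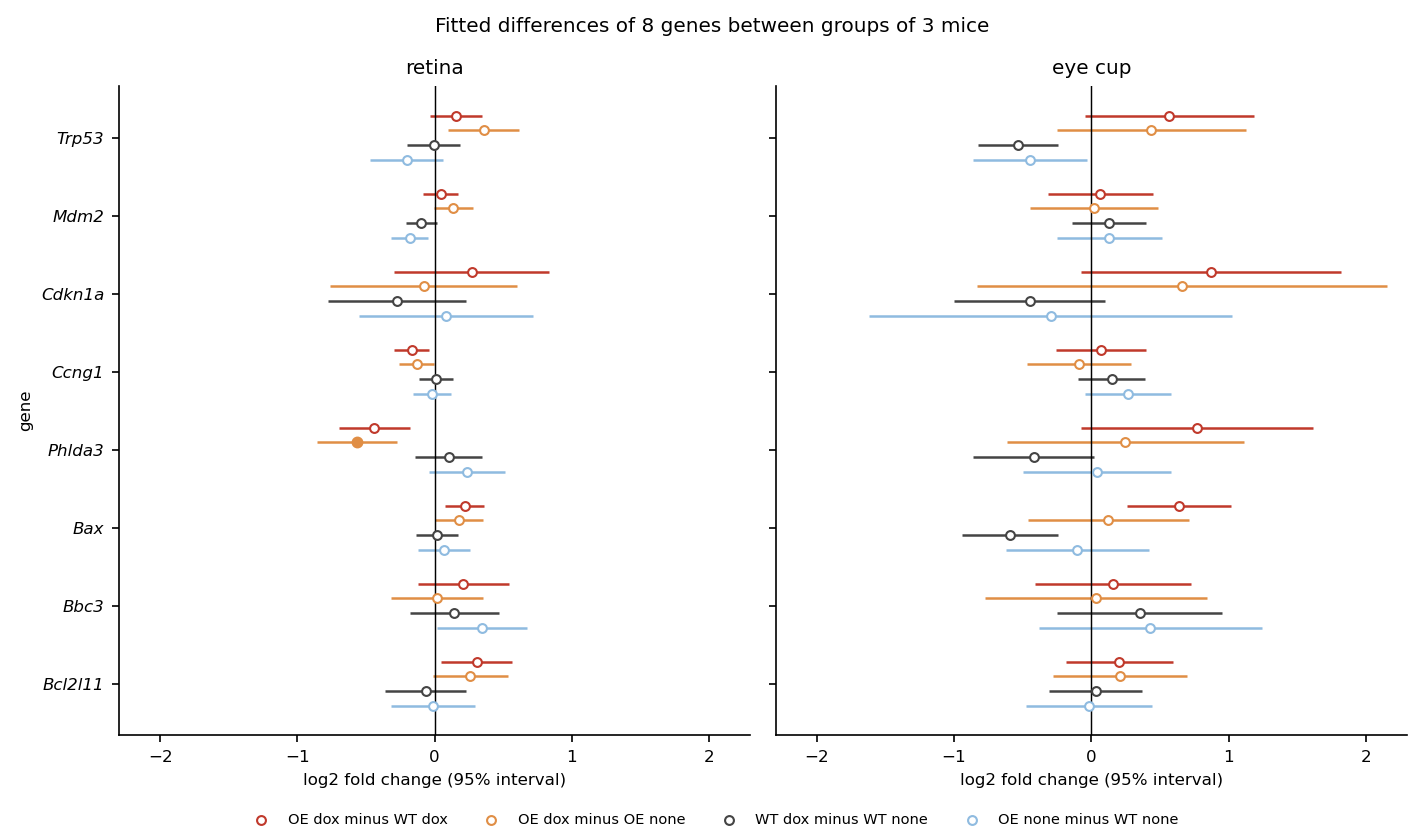
Fitted log2 fold changes of 8 of the genes (Eda2r is left out for its low retinal counts) with 95% intervals, in the retina (left) and the eye cup (right), in 4 comparisons of 3 against 3 mice. The filled point is Phlda3 in PRDM13-OE dox against untreated PRDM13-OE retinas (-0.56), the only difference that passed, and the intervals are wider in the eye cup than in the retina for all 8 genes in the comparison of the dox-treated genotypes.

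Neither dox with sucrose nor the knock-in without dox gave a member past the test in the retina. In wildtype retinas with and without dox, 0 of 9 passed (0 at an unadjusted p under 0.05, and 0 by DESeq2), where 0.00485% of 20631 genes passed. Without dox, 0 of 8 tested passed between genotypes (1 at an unadjusted p under 0.05, Mdm2, and 0 by DESeq2), where 0.00484% of 20668 genes passed and 0% were also past a log2 fold change of 1. Apart from Eda2r the differences were at most 0.27 and 0.34 in size, and the groups did not overlap for 1 gene with dox (Mdm2, lower) and for Bbc3 (higher) and Mdm2 (lower) between the untreated genotypes, where 14.4% and 9.62% of all genes did not overlap. Single libraries moved Cdkn1a past these sizes, from -0.27 to -0.54 without wildtype dox retina 3 in the first comparison and from 0.0862 to -0.44 without untreated PRDM13-OE retina 2 in the second.

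The interaction of genotype and dox over the 12 retinas asks whether dox acted differently in the knock-in. It passed for 3.03% of 22538 genes and was also past a log2 value of 1 for 0.87%, and for 0 of the 9 genes (3 at an unadjusted p under 0.05, and 1, Phlda3, by DESeq2). Phlda3 had the smallest p, with -0.66 (SE 0.192, adjusted p = 0.0789, DESeq2 adjusted p = 0.0372), followed by Mdm2 with 0.23 (SE 0.0927, adjusted p = 0.24) and Trp53 with 0.37 (SE 0.163, adjusted p = 0.31). The comparisons with PRDM13-OE dox retinas share those 3 libraries, so their values are given side by side and not as repeats of each other.

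Cell type markers moved in the same retinas. The 12 rod genes summed to 53300 to 59500 CPM in PRDM13-OE dox retinas and 71590 to 74290 CPM in wildtype dox retinas, 5 endothelial genes to 127.2 to 149.1 against 280.3 to 297.3 CPM, 5 erythroid genes to 0.669 to 1.12 against 29.4 to 73.4 CPM, and 7 microglial genes to 56.2 to 60.9 against 47.0 to 55.2 CPM. The 8 RPE and pigment genes summed to 128.9 to 145.1 against 167.9 to 197.8 CPM, and the 8 lens crystallins to 3.04 to 22.5 against 90.5 to 10120 CPM. In none of these 6 lists did the ranges of the dox-treated genotypes overlap. With the crystallin level as a covariate the difference between the dox-treated genotypes was 0.17 for Bax (adjusted p = 0.65) and 0.16 for Trp53 (adjusted p = 0.777), and without the 2 crystallin-rich retinas it was 0.25 (adjusted p = 0.37) and 0.11 (adjusted p = 0.82). The part of the other 5 lists in the levels of Bax, Trp53 and Phlda3 was not tested.

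Around the 9 genes, 108 further genes of 7 pathway lists (113 genes with the members that the lists also hold) were followed (p53 regulators, other p53 targets, the pro- and anti-apoptotic BCL-2 families, caspases and their inhibitors, death receptors, and cyclins with CDK inhibitors). Between dox-treated PRDM13-OE and wildtype retinas 102 of them were tested, and 6 rose and 9 fell (14.7%, against 12.5% of all genes tested). Of these 15, 5 were also past a log2 fold change of 1, all of them lower in PRDM13-OE. No gene of the pro-apoptotic BCL-2 list passed in edgeR (0 of 11 tested, 2 at an unadjusted p under 0.05, median 0.18 against 0.0056 over all genes), nor did one of the anti-apoptotic list (0 of 4 tested, 0 at an unadjusted p under 0.05, median -0.01). The pro-apoptotic list holds Bax, Bbc3 and Bcl2l11, and its 2 genes at an unadjusted p under 0.05 were Bax and Bcl2l11. Among the 32 other p53 targets tested, 2 rose and 1 fell, with a median of -0.02, and among 15 regulators of p53, Trp53 and Mdm2 included, 1 fell (median -0.08). Among 13 death receptor and necroptosis genes 3 fell and none rose (median -0.27). Of 20 genes of caspases and their inhibitors 4 passed (median 0.04), and of 17 cyclin and CDK inhibitor genes 1 rose and 3 fell (median 0.02).

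Ccnd1, the gene of cyclin D1, passed between the dox-treated genotypes under all 16 alternatives. It had 15.5, 13.7 and 15.9 CPM in the PRDM13-OE dox retinas against 29.4, 33.0 and 28.1 CPM in the wildtype dox retinas (-1.01, adjusted p = 1.8e-05). Untreated PRDM13-OE retinas lay between, at 21.1, 20.8 and 19.4 CPM (-0.44, adjusted p = 0.0166), below the 31.3, 21.9 and 27.1 CPM of untreated wildtype retinas. Its interaction was -0.62 (adjusted p = 0.0431) and passed under 7 of 21 alternatives. Ccnd2, the gene of cyclin D2, also fell between the dox-treated genotypes (7.66 against 15.3 CPM, -0.997, adjusted p = 0.0155), as did Ccng2, which encodes the relative of cyclin G1 (27.0 against 37.6 CPM, -0.49, adjusted p = 0.00522).

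The genes that rose came from several lists. Htra2, a mitochondrial serine protease that antagonizes caspase inhibitors once released, had 25.6, 25.1 and 24.6 CPM in the PRDM13-OE dox retinas and 14.9, 17.9 and 17.3 CPM in the wildtype dox retinas (0.58, adjusted p = 0.000831). Cdkn2c, which encodes the CDK inhibitor p18, had 23.18, 25.04 and 24.24 against 19.3, 18.2 and 14.5 CPM (0.47, adjusted p = 0.00843). In both genes the PRDM13-OE dox retinas lay above all 9 others. Gadd45a, a gene of the DNA damage response and a p53 target, rose from 15.1 to 22.5 CPM (0.57, adjusted p = 0.0011), and Polk, a polymerase that copies past damaged bases, from 13.6 to 18.4 CPM (0.43, adjusted p = 0.0112). Xiap, an inhibitor of caspases, stood at 629.3 against 522.8 CPM (0.26, adjusted p = 0.0333), and Endog, a mitochondrial nuclease, at 0.34 (adjusted p = 0.0384). Endog is outside the rule for naming genes and was added after its values were seen, to complete the 6. Of 16 alternatives Xiap passed under 9 and Endog under 7, Endog missing the threshold with the replicate block (adjusted p = 0.0583) and without 5 of the 6 libraries. Htra2 and Gadd45a passed under 14, Cdkn2c under 15 and Polk under 12. Against untreated PRDM13-OE retinas Polk (0.62), Cdkn2c (0.55), Htra2 (0.49) and Xiap (0.34) rose as well, while Gadd45a and Endog did not pass. Cdkn1c (0.45, adjusted p = 0.0172) and Ccnd3 (0.26, adjusted p = 0.0462) rose too and were likewise added. So 6 rose and 2, Ccnd1 among them, fell of 99 tested (8.08%, against 5% of all genes). Of 15 alternatives Ccnd3 passed under 8, Cdkn1c under 11, Ccnd1 under 12 and Xiap under 14, and Polk, Cdkn2c and Htra2 under all 15.

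Among the genes that fell, Tnfrsf21, a death receptor of neurons, stood at 25.3 against 39.0 CPM between the dox-treated genotypes (-0.63, adjusted p = 0.00406), and Hipk2, a kinase that phosphorylates p53, at 56.3 against 79.0 CPM (-0.50, adjusted p = 0.00641). Perp was low in both, at 2.95, 3.73 and 2.69 against 9.503, 7.745 and 3.955 CPM (-1.18, adjusted p = 0.0159). Eda, the gene of ectodysplasin, had 0.892, 0.778 and 0.761 against 2.06, 1.77 and 1.56 CPM (-1.15, adjusted p = 0.0166). Its receptor's adaptor gene Edaradd was read at 0, 0 and 0 against 6, 10 and 1 counts (adjusted p = 0.0406), and its high values sat in the 2 crystallin-rich wildtype dox retinas, as did those of Perp. Edaradd passed under 7 of 12 alternatives. Of 16 alternatives Perp and Eda passed under 11 each, and Tnfrsf21 and Hipk2 under 14 each.

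Only some of these calls held without those 2 retinas. Then Cdkn2c alone still rose, while Ccnd1 and Ccng2 were among the 3 that still fell, and with the crystallin level as a covariate Cdkn2c rose and Ccnd1 was among the 2 that fell. Without them Htra2 was at 0.53 (adjusted p = 0.12), Gadd45a at 0.61 (adjusted p = 0.0531), Polk at 0.41 (adjusted p = 0.241), Eda at -0.96 (adjusted p = 0.23), Hipk2 at -0.47 (adjusted p = 0.196), Tnfrsf21 at -0.64 (adjusted p = 0.115), Ccnd2 at -0.57 (adjusted p = 0.579) and Perp at -0.35 (adjusted p = 0.734), with a single wildtype dox retina in the comparison and the spread taken from all 10 retinas. With the covariate Gadd45a was at 0.68 (adjusted p = 0.0612), Ccng2 at -0.57 (adjusted p = 0.0542), Hipk2 at -0.67 (adjusted p = 0.15) and Polk at 0.48 (adjusted p = 0.244), each at least as large as without it. Smaller than without it, and not passing, were Htra2 (0.46), Tnfrsf21 (-0.45), Eda (-0.88), Edaradd (-2.31), Xiap (0.18) and Endog (0.20). Perp turned to 0.31 (adjusted p = 0.774) and Ccnd2 was at -0.03 (adjusted p = 0.991).

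**Figure D3:**
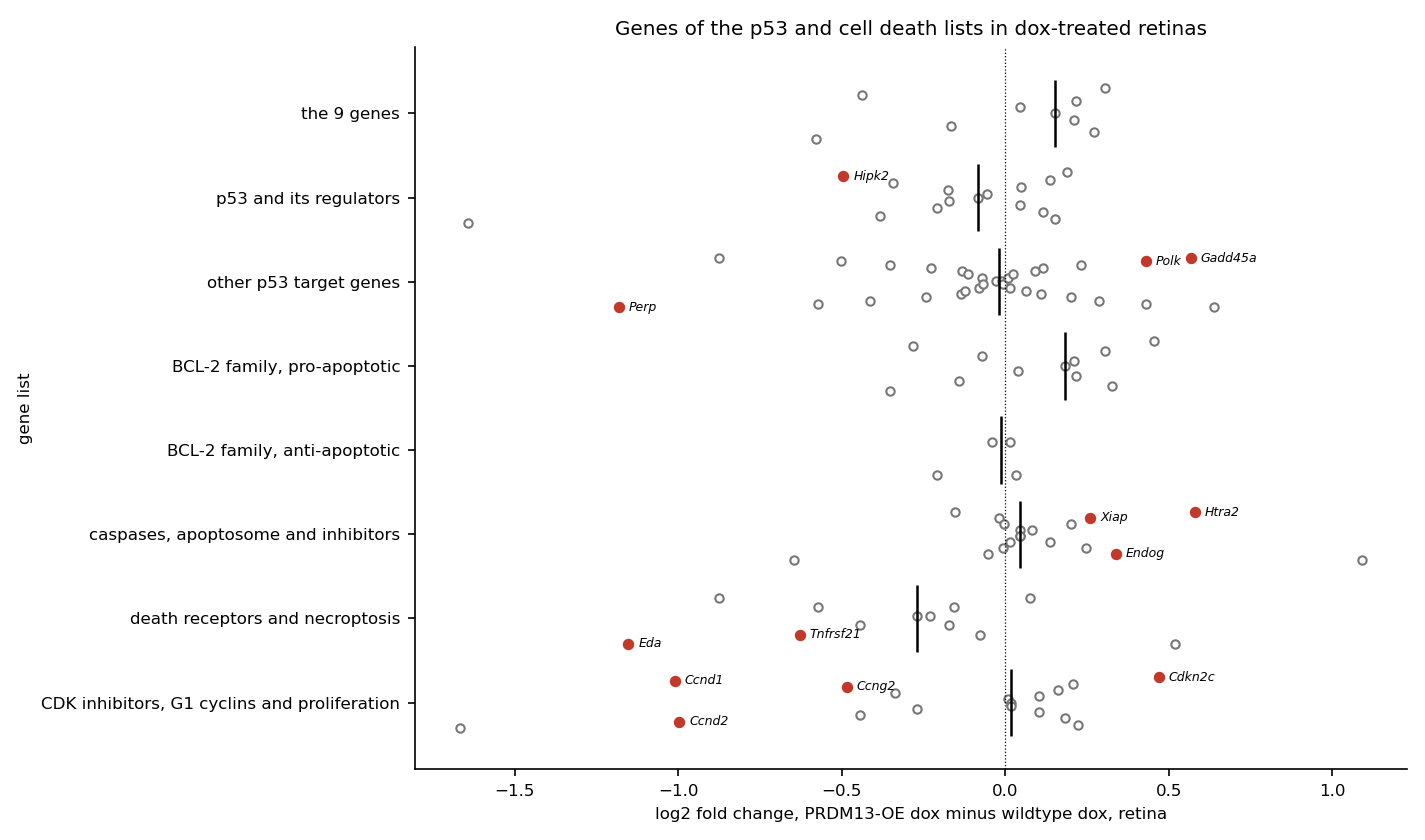
Fitted log2 fold changes between PRDM13-OE dox and wildtype dox retinas (3 against 3 mice) for the 9 genes (top row) and the genes of the 7 lists, 1 point per gene and 1 row per list, with the list's median as a black bar and 0 as the dotted line. Filled red points passed the test, and Edaradd, which was at 0 counts in all 3 PRDM13-OE dox retinas, is not drawn, nor are genes that are not reported here. Most genes sit close to 0, the medians run from -0.27 (death receptors) to 0.18 (pro-apoptotic BCL-2 genes), and Ccnd1 and Ccnd2 lie near -1.

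Over the 12 retinas the interaction passed for 5 of 105 pathway genes tested (4.76%, against 3.03% of all genes), with Ccnd1 and Ccng2 among those below 0 and Polk and Xiap above 0. Neither dox in wildtype retinas (0 of 102 tested, 15 at an unadjusted p under 0.05, 1 by DESeq2) nor the knock-in without dox (0 of 99 tested, 6 at an unadjusted p under 0.05, 0 by DESeq2) gave a pathway gene past edgeR's test.

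Between tissues most of the 9 genes differed. In untreated wildtype mice, 7 of the 9 passed between the retina and the eye cup of the same mice, where 61.5% of 21979 genes passed and 45.2% were also past a log2 fold change of 1. Phlda3, Cdkn1a, Trp53, Bax and Eda2r were lower in the retina, Mdm2 and Ccng1 were higher there, and Bbc3 (0.23, adjusted p = 0.48) and Bcl2l11 (0.12, adjusted p = 0.561) did not pass. The 7 passed under all 14 alternatives, the block on the mouse included. Library size alone as scaling moved all values toward the retina, Bax to -0.78, Ccng1 to 0.72, Mdm2 to 1.01 and Trp53 to -1.70, without turning a direction.

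Phlda3 was 10.7, 10.3 and 9.90 CPM in the 3 untreated wildtype retinas and 69.9, 112.8 and 81.7 CPM in the eye cups of the same mice, which was -3.19 on the log2 scale (SE 0.213, adjusted p = 1.9e-05). Cdkn1a was 7.31, 4.33 and 4.50 CPM in the retinas and 43.5, 48.8 and 37.1 CPM in the eye cups (-3.08, SE 0.246, adjusted p = 4.3e-05). Trp53 itself was 13.4, 12.5 and 14.0 against 47.2, 51.7 and 50.8 CPM (-1.99, SE 0.123, adjusted p = 1.3e-05). In all 3 genes every retina lay far below every eye cup. Bax differed less, with 18.98, 18.77 and 18.09 against 36.7, 30.1 and 44.4 CPM (-1.08, SE 0.157, adjusted p = 0.000797).

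Eda2r summed to 3 counts in the 3 untreated wildtype retinas and 63 counts in the 3 eye cups, a ratio of CPM of 23.4 with an exact 95% interval from 7.65 to 117 that covers counting error only. Mdm2 went the other way, at 63.6, 62.5 and 64.8 CPM in the retinas and 41.5, 32.8 and 35.6 CPM in the eye cups (0.71, SE 0.119, adjusted p = 0.00147). Ccng1 was 110.6, 116.3 and 119.1 against 84.7, 79.1 and 80.4 CPM (0.42, SE 0.104, adjusted p = 0.0097). So the gene of p53 and that of its inhibitor differed between the tissues in opposite directions, without overlap in either.

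Levels of different genes can be set beside each other only per length, for which the deposited FPKM values were used. Over the 12 retinas the medians fell from Ccng1 (30.7 FPKM) to Bax (11.9), Mdm2 (11.5), Phlda3 (6.39), Trp53 (3.24), Bbc3 (2.35), Bcl2l11 (1.93), Cdkn1a (1.26) and Eda2r (0.0168). Bax and Mdm2 overlapped in their ranges, as did Trp53 with Bbc3, Bbc3 with Bcl2l11 and Bcl2l11 with Cdkn1a, and the other neighbours did not. Over the 12 eye cups Phlda3 came first with a median of 52.9 FPKM, followed by Ccng1 (25.7), Bax (21.6), Cdkn1a (11.5), Trp53 (10.8), Mdm2 (7.87), Bbc3 (2.09), Bcl2l11 (1.69) and Eda2r (0.182). There the ranges of neighbours overlapped except between Mdm2 and Bbc3 and between Bcl2l11 and Eda2r.

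Genes that act beside these 9 were mostly lower in the retina too. Of 106 pathway genes tested in 7 lists, 81 passed (76.4%, against 61.5% of all genes, of which 6376 were higher and 7152 lower), 24 higher and 57 lower in the retina, and the median difference was -0.77 against -0.06 over all genes. Among the 12 with the largest differences were Perp, a junction protein of epithelia and a p53 target (3.91 against 896.7 CPM in the eye cup), Trp63, the p53 relative that maintains epithelial stem cells (0.458 against 52.0 CPM), Casp8, the initiator caspase of death receptors (1.10 against 27.1 CPM), and Cdkn2b, a CDK inhibitor (0.34 against 14.7 CPM). The other 8 were Mki67, Top2a, Birc5, Ripk3, Trp73, Bik, Bcl2a1b and Edaradd, each at a mean of 0.0150 to 0.251 CPM in the untreated wildtype retinas.

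In the eye cup, the effect of PRDM13 induction on the 9 genes could be read only roughly. None passed between dox-treated PRDM13-OE and wildtype eye cups (0 of 9 by edgeR, 1 at an unadjusted p under 0.05, 0 by DESeq2), where 0.0184% of 21758 genes passed and 1792 had an unadjusted p under 0.05. All 9 fitted differences were above 0, with a median of 0.57 against 0.0534 over all genes, and with adjusted p-values of 0.597 or more, which does not show that the groups were alike. On the CPM scale set over all 24 libraries, Mdm2 and Ccng1 had slightly lower means in PRDM13-OE (41.1 against 42.0 and 93.2 against 94.7 CPM).

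Bax had 30.6, 41.5 and 41.1 CPM in the PRDM13-OE dox eye cups and 27.5, 23.5 and 26.4 CPM in the wildtype dox eye cups, the single member without overlap (16.2% of all genes did not overlap). Its fitted difference was 0.64 (SE 0.192, adjusted p = 0.597). Cdkn1a had 88.0, 57.8 and 25.2 against 23.2, 27.4 and 49.0 CPM (0.87, SE 0.482, adjusted p = 0.604). Its difference ran from 0.41 without PRDM13-OE dox eye cup 1 to 1.28 without wildtype dox eye cup 3 and did not pass when any of the 6 libraries was left out (adjusted p-values of 0.0618 or more). The PRDM13-OE group ran from the highest of all 12 eye cups to a value within the wildtype range. Phlda3 had 157.0, 129.2 and 46.1 against 61.3, 61.5 and 85.0 CPM (0.77, SE 0.43, adjusted p = 0.605), and Trp53 had 56.9, 65.6 and 28.8 against 33.0, 33.5 and 42.2 CPM (0.57, SE 0.315, adjusted p = 0.604). In these 2 genes the third PRDM13-OE mouse was the lowest of the 6, while the other 2 were the highest.

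**Figure D4:**
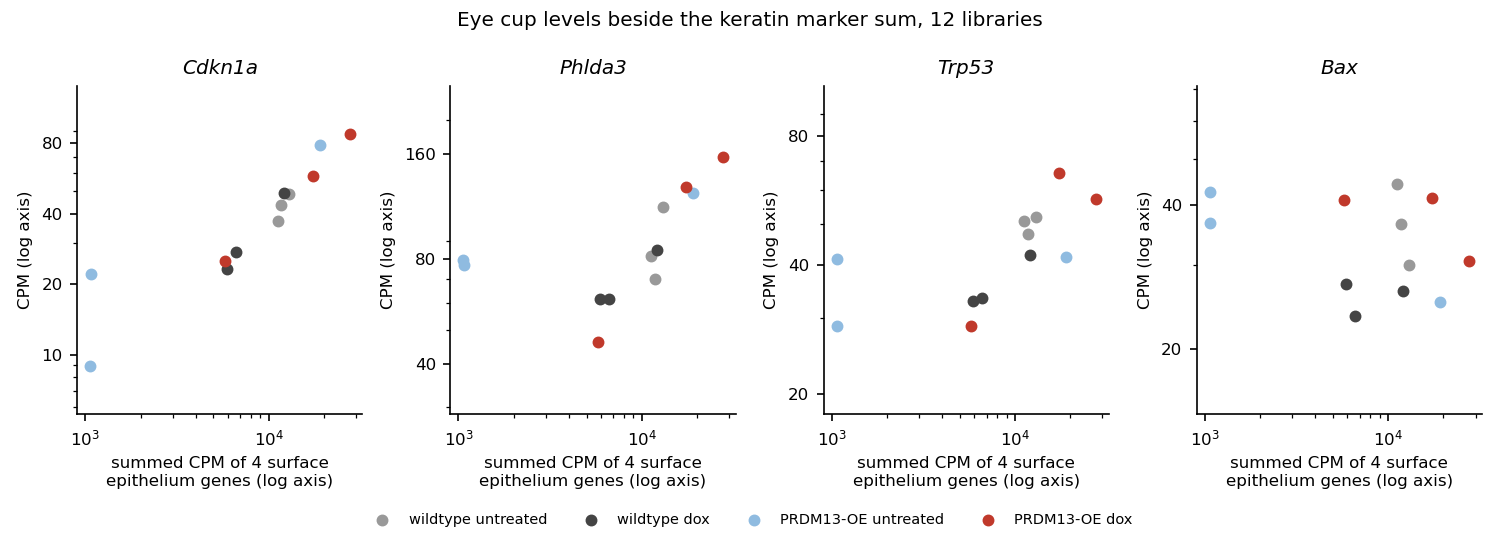
Levels of Cdkn1a, Phlda3, Trp53 and Bax in the 12 eye cups (CPM, log axis) against the summed level of Krt5, Krt12, Krt14 and Krt15 in the same library (CPM, log axis), 1 point per mouse and 1 colour per group. Cdkn1a ran from 8.96 CPM in an eye cup with little keratin to 88.0 CPM in the one with the most, while Bax showed no such order.

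The keratin sum moved with Cdkn1a, Phlda3 and Trp53 in the dox-treated eye cups and not with Bax. Among the PRDM13-OE dox eye cups, Bax was lowest in the one with the most keratin (30.6 CPM), though above every wildtype dox eye cup. The keratin sum was 27620, 17370 and 5747 CPM in the PRDM13-OE dox eye cups of mice 1, 2 and 3, 5921, 6599 and 12060 CPM in the wildtype dox eye cups, 19100, 1073 and 1064 CPM in the untreated PRDM13-OE eye cups, and 11750, 12990 and 11220 CPM in the untreated wildtype eye cups. The 4 keratin genes were above 0 counts in every group. With the keratin level as a covariate over the 12 eye cups, the difference between dox-treated genotypes was 0.19 for Cdkn1a, 0.40 for Phlda3, 0.39 for Trp53 and 0.73 for Bax (adjusted p = 0.357 for Bax), an alternative chosen after seeing the data. Rod transcripts differed between the same eye cups too, at 14190, 6116 and 40550 CPM in the PRDM13-OE dox eye cups of mice 1, 2 and 3 and 29060 to 53710 CPM in the wildtype dox eye cups. With the rod level as the covariate the difference was 0.07 for Trp53 (adjusted p = 0.988), 0.12 for Phlda3 (adjusted p = 0.987), 0.47 for Cdkn1a and 0.58 for Bax. Other lists did not overlap between the same eye cups, with 5 erythroid genes at 12.8 to 15.6 against 252.4 to 616.3 CPM, 5 endothelial genes at 117.7 to 273.8 against 284.2 to 313.7 CPM and 8 lens crystallins at 5.09 to 315.7 against 611.6 to 3000 CPM, and their part was not tested. Without PRDM13-OE dox eye cup 3, Trp53 (0.85, adjusted p = 0.0335) and Phlda3 (1.14, adjusted p = 0.023) passed, as did 2209 genes in all where 4 had passed with it. Without PRDM13-OE dox eye cup 2 Trp53 was at 0.32, and without PRDM13-OE dox eye cup 1 Phlda3 was at 0.43, and neither gene passed without any of the other 5 libraries (adjusted p-values up to 0.971).

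Dox in wildtype eye cups and the other eye cup comparisons gave no member past the test. Between wildtype eye cups with and without dox, 0 of 9 passed by edgeR (2 at an unadjusted p under 0.05), where 0% of 21799 genes passed and 6517 had an unadjusted p under 0.05. By DESeq2, 4152 genes passed there, Trp53 and Bax among them. Trp53 had 33.0, 33.5 and 42.2 CPM with dox and 47.2, 51.7 and 50.8 CPM without (-0.53, SE 0.149, adjusted p = 0.0807, DESeq2 adjusted p = 0.0248), and Bax had 27.5, 23.5 and 26.4 against 36.7, 30.1 and 44.4 CPM (-0.59, SE 0.178, adjusted p = 0.0876, DESeq2 adjusted p = 0.0387). Both were lower in every dox-treated mouse, as was Eda2r, and Ccng1 was higher in every one, where 37.5% of all genes did not overlap. The RPE and pigment genes were also lower with dox, at 8112 to 18150 against 24210 to 37060 CPM, as were 7 microglial genes (184.1 to 236.2 against 318.7 to 420.4 CPM) and 6 Muller glia genes (8434 to 10440 against 12080 to 17360 CPM), without overlap, and their part was not tested. Rod transcripts went the opposite way, at 29060 to 53710 CPM with dox and 3616 to 27920 CPM without, and with the rod level as a covariate the difference was -0.0036 for Trp53 and -0.54 for Bax.

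Between PRDM13-OE eye cups with and without dox, 0 of 9 passed (0 at an unadjusted p under 0.05, 0 by DESeq2), where 0.0139% of 21604 genes passed, and no member was without overlap. Between untreated PRDM13-OE and wildtype eye cups, 0 of 9 passed (0 at an unadjusted p under 0.05, 0 by DESeq2), where 0% of 21588 genes passed and 404 had an unadjusted p under 0.05. There Trp53 was lower and Ccng1 higher in every untreated PRDM13-OE mouse, where 5.93% of all genes did not overlap. The differences were at most 0.66 and 0.45 in size. Without untreated PRDM13-OE eye cup 1, the one with 19100 CPM of keratin, Cdkn1a moved from 0.66 to 1.88 in the first comparison and from -0.30 to -1.50 in the second, and without untreated PRDM13-OE eye cup 3 the second turned to 0.22. Of the pathway genes, 0 of 105 to 107 tested passed in each of the 4 eye cup comparisons by edgeR (0 to 34 at an unadjusted p under 0.05), and DESeq2 called 7 higher and 16 lower with dox in wildtype mice and 0 in the other 3 comparisons.

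Over the 12 retinas, the genes whose log2(CPM + 1) ran most like that of each member were counted among 14730 genes with a mean of at least 1 CPM, as a description and with no test. The closest was Ldb1 to Bax (Pearson's r = 0.967), followed by Nhlrc2 to Bax (0.947), Cspg5 to Phlda3 (0.925), Cap2 (0.924) and Impact (0.924) to Ccng1, and Zfp574 to Bbc3 (0.916). For Trp53 they were D430019H16Rik (0.895) and Oaz2-ps (0.886), and for Mdm2 Ddx11 (0.843) and 1700048O20Rik (0.838). Bex4 was the other for Phlda3 (0.890), while Bcl2l11 ran most like Gm10638 (0.906) and C030006K11Rik (0.898) and Cdkn1a most like Lrp8 (0.850) and Gabrr3 (0.838). For Eda2r, searched over 14731 genes, they were Apod (0.895) and 2510039O18Rik (0.844), at levels of few counts. All 12 points share their libraries and dissections, and the SD of the members' own log2(CPM + 1) was between 0.0916 (Mdm2) and 0.418 (Cdkn1a).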

How the data were processed

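PolyA RNA of 24 libraries (12 mice, neural retina and eye cup of each) was sequenced and deposited by the authors as raw read counts per gene, with FPKM values that the authors computed from the length and count of each gene. Reads had been mapped to GRCm39, and the submitters' processing notes name HISAT2 and CASAVA. The counting tool, its strand setting and the annotation release are not given in the sources used here, so reads of overlapping or antisense genes cannot be separated. The deposited table also holds group means, fold changes and p-values of the authors' own comparisons, which were not used. It had 0 columns of other samples, and no pair of libraries was near-identical (0 pairs).

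A gene entered a comparison if its libraries together held 10 counts or more. Counts were scaled with TMM factors and tested with edgeR 4.0.16 (quasi-likelihood test, R 4.3.3), with Benjamini-Hochberg adjustment over all genes tested. CPM levels used TMM factors over all 24 libraries, and FPKM was used only to set genes beside each other. DESeq2 1.42.0 was an alternative, as were the other settings described at the end, and the test was checked on simulated data. Promoter windows were searched in Python 3.11.15 with pandas 2.3.3, and figures drawn with matplotlib 3.10.9. Depth was 15825059 to 24908314 counts per library, and intervals on counts cover counting error only.

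Groups followed the labels. The 9 genes and all lists of pathway and marker genes were chosen with earlier results of these data known. From the pathway lists, genes past both cutoffs were named (at most 12 per comparison, by size), with the 10 of smallest adjusted p between dox-treated genotypes and in the retina interaction, and the 2 genes most like each member over 12 retinas. Some genes that these rules name are not reported here, but counts over lists include them. In the comparisons of wildtype retinas by dox, of untreated genotypes, and of PRDM13-OE eye cups by dox, members are given as counts and largest size in place of each value. Mouse numbers are shared by the groups. Same-numbered samples did not all correlate above 0.1 in any comparison, so the number was not used as a pairing between mice, while retina and eye cup of 1 mouse are paired by the labels (r = 0.0905, 0.1138 and 0.0866).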

Additional observations from a re-analysis of the deposited data

Results flagged for a closer look

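In the retina, the effect of dox differed between PRDM13-OE and wildtype mice for 4 genes of the pathway lists described here, by the interaction term of edgeR's quasi-likelihood test over 12 retinas. The interaction passed for 5 of 105 pathway genes tested (4.76%, against 3.03% of all genes). Ccnd1 was at -0.62 (adjusted p = 0.0431), with 15.1 CPM in the PRDM13-OE dox retinas on average and 20.4 CPM without dox, and Ccng2 was at -0.49 (adjusted p = 0.0486). Polk was at 0.66 (adjusted p = 0.0257) and Xiap at 0.45 (adjusted p = 0.0298). Over 21 alternatives Polk passed under 13, Xiap under 12, Ccng2 under 9 and Ccnd1 under 7, and the sign of none of the 4 turned. With the crystallin level as a covariate none of the 4 passed (adjusted p = 0.142 for Ccnd1, 0.0638 for Ccng2, 0.0578 for Polk and 0.11 for Xiap). Without the 2 crystallin-rich wildtype dox retinas, which left 1 in that group, the same genes were at -0.53, -0.56, 0.64 and 0.33.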

How the results depend on the processing

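The 7 member calls between tissues held under all 14 alternatives, and counts of members passed within a tissue moved by at most 2. Median ratio scaling, edgeR's own expression filter and all libraries of a tissue in 1 fit moved no count of members or pathway genes passed by over 1.5 times. Covariates for surface epithelium and the fits without both crystallin-rich retinas were chosen after seeing the data. Between dox-treated retinas 0 members passed, against 1 with library size alone (Bax), 2 without the low count filter, 1 in a robust fit and 1 with a replicate block on the mouse number. In the interaction 0 became 1 without the filter, in the robust fit, with the replicate block (Phlda3) and by DESeq2, and with PRDM13-OE retinas by dox 1 became 0 with library size alone. The replicate block changed no other count of members passed. Leaving out each library in turn gave 0 to 1 members in each of these 3 comparisons, and 0 to 2 passed (0 to 1 past both cutoffs) between dox-treated eye cups. By DESeq2, 2 members passed between wildtype eye cups by dox.

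Small differences changed sign. Over left-out libraries Mdm2 ran from -0.0069 to 0.0901 between dox-treated retinas, and in PRDM13-OE retinas by dox Cdkn1a ran from -0.36 to 0.45, Bbc3 from -0.10 to 0.14 and Eda2r from -0.41 to 0.46. The Cdkn1a interaction ran from -0.0908 to 0.72. Between dox-treated eye cups Mdm2 ran from -0.0573 to 0.18 and Bbc3 from -0.0116 to 0.25, and by dox in wildtype eye cups Bcl2l11 ran from -0.0546 to 0.12. With the lens crystallin covariate the differences between dox-treated retinas were -0.77 for Cdkn1a, -0.0937 for Mdm2, 0.46 for Eda2r and 0.31 for Perp, Eda2r was at 0.11 by dox in PRDM13-OE, and the Cdkn1a interaction was -0.26. Without both crystallin-rich wildtype dox retinas Cdkn1a was at -0.16, Mdm2 at -0.029 and Eda2r at 0.84, and the interactions of Cdkn1a and Bbc3 were -0.24 and 0.023. With the rod covariate Bbc3 (-0.0849), Eda2r (-0.0028) and Bcl2l11 (-0.0152) turned between dox-treated eye cups, as did Mdm2 (-0.0661) and Phlda3 (0.31) by dox in wildtype eye cups, and with the surface epithelium covariate Ccng1 did (-0.0039). The cause of these turns was not tested.

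Of the pathway genes, 6 rose and 9 fell between dox-treated retinas. With library size alone 11 rose, with the lens covariate 1 rose and 2 fell, without both crystallin-rich retinas 1 rose and 3 fell, and 3 to 6 rose over left-out libraries, 3 without PRDM13-OE dox retina 2. In PRDM13-OE retinas by dox 3 to 5 rose and 1 to 3 fell over left-out libraries, 5 fell without the filter and 1 with the lens covariate. In the interaction 0 to 2 rose and 1 to 2 fell over left-out libraries, 1 fell with library size alone, 7 fell without the filter, and 0 rose and 1 fell both with the lens covariate and without the crystallin-rich retinas. In wildtype retinas by dox 0 to 1 rose over left-out libraries, 2 rose without the filter and 1 by DESeq2. In the eye cup, 0 to 11 rose and 0 to 1 fell between dox-treated genotypes over left-out libraries, 11 and 1 of them without PRDM13-OE dox eye cup 3, and 0 to 3 fell between untreated genotypes, 3 without untreated PRDM13-OE eye cup 1. By dox in wildtype eye cups 0 to 8 rose and 0 to 11 fell over left-out libraries, 4 rose and 2 fell with library size alone, 3 rose and 6 fell without the filter, and 7 rose and 16 fell by DESeq2.

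Counts over all genes moved more. Between dox-treated retinas 2575 genes passed, 542 with the lens covariate, 713 without both crystallin-rich retinas and 1504 and 1685 without PRDM13-OE dox retinas 2 and 3, and with library size alone 2175 of 3182 were higher in PRDM13-OE where 1030 of 2575 had been. By dox in PRDM13-OE retinas 1031 passed, 1658 without the filter and 605 and 679 without PRDM13-OE dox retinas 2 and 3, and with library size alone 677 of 1149 were higher where 421 of 1031 had been. The interaction passed for 682, 1433 without the filter 323 without the crystallin-rich retinas and 453 without PRDM13-OE dox retina 2. By dox in wildtype retinas 1 passed, 93 by DESeq2, 588 without the filter, 26 with the robust fit and with the replicate block, and 184 without wildtype dox retina 3, and between untreated retinas 1 passed and 104 without the filter. Between dox-treated eye cups 4 passed, 147 by DESeq2, 28 with the surface epithelium covariate and 2209 without PRDM13-OE dox eye cup 3, and by dox in PRDM13-OE eye cups 3 passed, 59 by DESeq2, 47 with the rod covariate and 22 with the surface epithelium covariate. By dox in wildtype eye cups 0 passed, 1348 with library size alone, 1604 without the filter, 1398 without wildtype dox eye cup 3 and 2853 without untreated wildtype eye cup 1, and between untreated eye cups 0 passed, 298 without untreated PRDM13-OE eye cup 1. Between tissues 6376 of 13528 were higher in the retina, and 7984 of 14020 with library size alone.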

Other observations

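Markers of the remaining cell types described the dissections. In the retinas, 6 genes of Muller glia summed to 4825 to 5870 CPM over the 4 groups, 5 fibroblast genes to 6.60 to 55.2 CPM and 8 skeletal muscle genes to 4.23 to 43.5 CPM. In the eye cups the same lists reached 7154 to 17360 CPM, 662 to 3789 CPM and 244.7 to 2530 CPM. The 5 lens genes other than crystallins summed to 5.85 to 560.9 CPM in the wildtype dox retinas and 1.67 to 3.23 CPM in the PRDM13-OE dox retinas, with 1 of the 5 at 0 counts in each group.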
